A study of Arabidopsis thaliana with 28 samples.

Results

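The probe sets described here were raised in both BAM7-N_Ox and BAM8-N_Ox shoots of Arabidopsis thaliana, and they number 73 of the 22746 probe sets of the table (0.321%). They were chosen by their measured levels on the log2 scale. A probe set was taken when its mean in each N line was at least 1.5-fold (0.59 on the log2 scale) above a baseline and was itself at least 5, with the baseline being the mean of the 6 arrays of wildtype, BAM7_Ox and BAM8_Ox. The rises over that baseline are therefore a description, and no test is given for them.

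Shoots of untreated 3-week-old Col-0 plants, harvested 4 h after the start of a 12 h light period, gave 28 arrays in 14 groups of 2 biological replicates, each replicate a pool of 14 plants. The groups are BAM7-N_Ox and BAM8-N_Ox, 6 further suffixed lines (BAM7-DNA_Ox, BAM8-DNA_Ox, BAM7-Cat_Ox, BAM8-Cat_Ox, BAM7-Lig_Ox and BAM8-Lig_Ox), 3 groups of mutants (bam7, bam8 and the double mutant bam7 bam8), and the baseline groups BAM7_Ox, BAM8_Ox and wildtype. The labels define none of the suffixes, and Ox is read as overexpression. They name neither a promoter nor the number of independent transformants behind a line, and do not say whether the 2 pools were sown separately, so the spread between replicates may be partly technical.

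BAM7 and BAM8 belong to the beta-amylases, a plant family whose enzymatic members release maltose from starch. These 2 proteins lie in the nucleus and join a beta-amylase-like domain to a DNA-binding domain of the type found in BZR1, a transcription factor of the brassinosteroid response. The series addresses the part that the enzyme-like domain plays in sequence recognition and in transcriptional activation.

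Values are RMA intensities, 1 per probe set and array, put on the log2 scale. Array medians were 23.5 to 25.8 intensity units, and replicate arrays correlated across probe sets with r of 0.990 to 0.997 (probe sets are not independent of each other). The lowest correlation was that of BAM7-Cat_Ox, where 254 probe sets lay over 2-fold apart between the replicates. Every other group had 6 to 78 of these. The sources used here do not link the IDs of probe sets to genes. Probe sets are therefore given by ID, without gene names or roles, and the shoot could not be checked against marker genes. Because pools of whole shoots were measured, more cells of a type and more RNA per cell cannot be told apart.

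The rises were moderate in most members and large in a few. Over all probe sets, 1.43% had a BAM7-N_Ox mean and 1.19% a BAM8-N_Ox mean this far above baseline. The median rise over baseline was 0.92 in BAM7-N_Ox, a factor of 1.90, and 0.87 in BAM8-N_Ox, a factor of 1.83. In BAM7-N_Ox 32 members rose by at least 1 on the log2 scale and in BAM8-N_Ox 28 did, and 17 did in both. A rise of 3 or more was seen in 3 members in BAM7-N_Ox and in 0 members in BAM8-N_Ox, where the highest was 2.16. The level in the baseline groups ranged from 3.84 to 11.97 among members, with a median of 5.56, against 4.59 over all probe sets. The rule asks for a level of at least 5 in the N lines, so a dim probe set could enter only with a large rise.

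**Figure D1:**
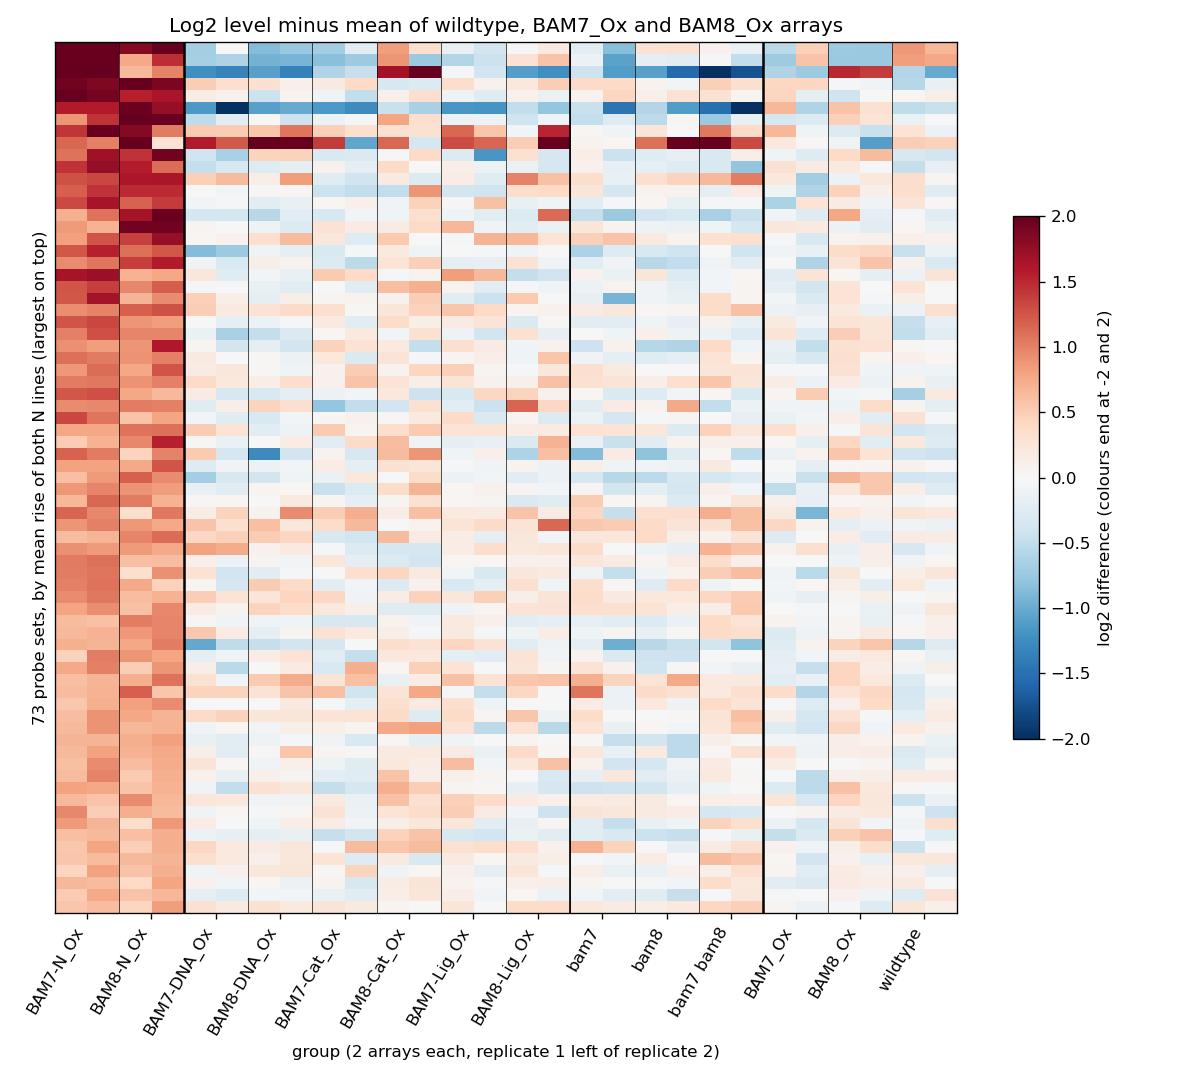
Log2 level of each of the 73 members (rows) on each of the 28 arrays (columns, 2 per group) minus the mean of the 6 baseline arrays, on a colour scale that ends at -2 and 2. The 4 arrays of the N lines on the left are above 0 throughout, while most members stay near 0 on the other 24 arrays. Exceptions include 247882_AT, the row near the top that is red in BAM8-Cat_Ox and BAM8_Ox, and 245928_S_AT, a little lower, which is red in many groups. Another is 260560_AT, whose means differed from the baseline by -0.55 to -1.83 in the groups that the rule did not use.

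Probe set 257365_X_AT had the highest mean rise of both lines. Its level was 10.74 and 10.38 in BAM7-N_Ox and 7.03 and 7.68 in BAM8-N_Ox, against 4.45 to 6.05 on the baseline arrays. These are rises of 5.37 (41.3-fold) and 2.16 (4.48-fold), and all 4 N arrays lay above the 24 others. The suffix X marks a probe set that the array design expects to meet related transcripts as well, so its signal may come from more than 1 gene.

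Next by mean rise came 249052_AT. It stood at 8.10 and 8.18 in BAM7-N_Ox and at 5.41 and 6.13 in BAM8-N_Ox, against 3.95 and 5.23 in BAM7_Ox, 3.92 and 3.92 in BAM8_Ox and 5.49 and 5.43 in wildtype. BAM8-N_Ox replicate 1 thus lay below both wildtype arrays, and the rise of 1.12 in BAM8-N_Ox rests on the low arrays of the unsuffixed lines. Over the 6 baseline arrays its SD was 0.80, against a median of 0.26 for the members.

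Values ran close together on both sides of the threshold. The member nearest to it was 258845_AT, with rises of 0.59 in BAM7-N_Ox and 0.63 in BAM8-N_Ox. Just outside stood 257712_AT, with 0.68 in BAM7-N_Ox and 0.58 in BAM8-N_Ox. The number of probe sets meeting the rule ranged from 63 to 88 when any 1 of its 10 arrays was left out, and 43 of the 73 met it in all 10 cases. Without a minimum level 118 probe sets met the rule, and with a rise of 1 in place of 0.59 there were 17.

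Replicates of the N lines lay somewhat farther apart in the members than over all probe sets. The 2 replicates differed by a median of 0.14 in BAM7-N_Ox and 0.16 in BAM8-N_Ox, against 0.10 in both lines over all probe sets. On all 4 N arrays 50 members lay at or above the threshold singly. In 66 members all 4 N arrays lay above all 6 baseline arrays, against 3.42% of all probe sets, and in 44 members above all 24 other arrays, against 0.756%, a separation that follows in part from the rule. A single member had replicates more than 2-fold apart in an N line, while 14 of all probe sets did in BAM7-N_Ox and 24 in BAM8-N_Ox. That member, 245928_S_AT, was singled out after its values were seen.

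The level of 245928_S_AT was 6.15 and 6.02 in BAM7-N_Ox, 8.76 and 5.30 in BAM8-N_Ox, and 3.91 to 5.50 on the baseline arrays. It also spread widely within groups that the rule did not use, with 5.51 and 9.11 in BAM8-Lig_Ox and 6.41 and 3.98 in BAM7-Cat_Ox. Its means in BAM8-DNA_Ox (7.32) and BAM8-Lig_Ox (7.31) were above both N means (6.09 in BAM7-N_Ox and 7.03 in BAM8-N_Ox), so the N lines were not its highest groups. It is 1 of 5 members whose IDs end in S_AT, the suffix for probe sets shared by several transcripts.

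On single arrays, 65 and 71 members in BAM7-N_Ox and 59 and 70 in BAM8-N_Ox lay at least 1.5-fold above baseline. Of all probe sets 1.49% and 2.03% in BAM7-N_Ox and 1.60% and 1.75% in BAM8-N_Ox did. On each of the other 24 arrays between 0 and 11 members lay that high. The N counts follow from the rule, and 6 of the 24 arrays make up the baseline itself, so this contrast is a description only. The highest counts outside the N lines were the 11 and 9 of the BAM8-Cat_Ox arrays, on which 0.642% and 1.79% of all probe sets lay that high, and the 9 of BAM8-Lig_Ox replicate 2, with 0.923%.

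How far the members' rise was shared with the other modified lines was asked on the 9 groups that the rule did not use (18 arrays). In 68 of the 73 members both N means lay above all 9 of these group means, against 5.97% of all probe sets, with the N side fixed by the rule. The other 5 had at least 1 group at or above the lower N mean: BAM8-Cat_Ox in 3 of them, BAM7-Lig_Ox in 2, and, for 245928_S_AT alone, BAM7-DNA_Ox, BAM8-DNA_Ox, BAM8-Lig_Ox, bam8 and bam7 bam8. All 4 N arrays were above all 18 arrays in 45 members, against 0.98% of all probe sets, and the N side of that count was fixed by the rule.

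**Figure D2:**
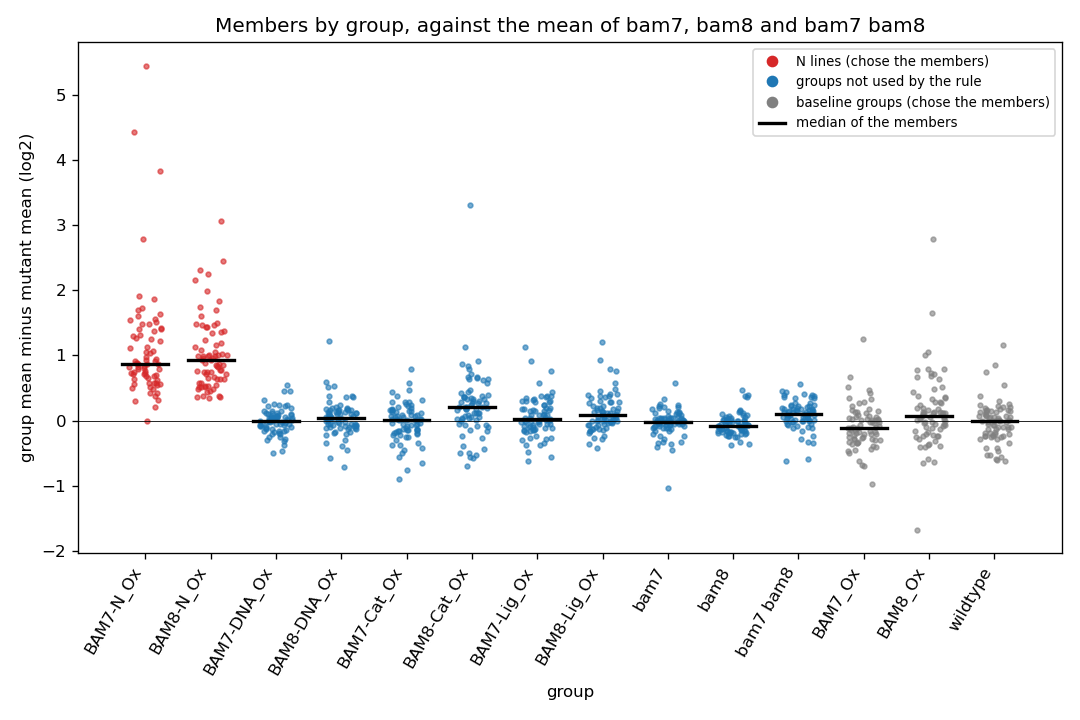
Mean of each group minus the mean of bam7, bam8 and bam7 bam8 (log2) for the 73 members (points), with their median (bar), in the 14 groups. The medians of the N lines are 0.88 and 0.93 by the rule, while among the groups that the rule did not use BAM8-Cat_Ox has the highest median, 0.20, and 1 point at 3.31.

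A moderated F test of limma across these 9 groups, adjusted by Benjamini-Hochberg over all 22746 probe sets, called 10 of the 73 members (13.7%) at an adjusted p under 0.05. The share of all probe sets called was 1.87%. Among the 10155 probe sets that met the level of 5 in both N lines, as every member does, it was 2.96%. The distance between the highest and the lowest of the 9 group means had a median of 0.65 over the members and of 0.36 over all probe sets. It was over 1 in 15 members, against 1.72% of all probe sets. The 2 members with the largest F were 247882_AT (adjusted p 7.58e-07) and 252115_AT (adjusted p 8.92e-05). With only the 9 groups in the fit the count was 6 (8.22%), against 0.747% of all probe sets. It was also lower without BAM8-DNA_Ox replicate 2.

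Each of the 6 suffixed lines was then set against the mean of bam7, bam8 and bam7 bam8, whose 6 arrays had no part in the choice of members. These comparisons share the mutant arrays, so they are not independent of each other. BAM8-Cat_Ox stood out in number of members called, with 13 of 73 (17.8%), 9 higher and 4 lower, by limma at an adjusted p under 0.05. The unsuffixed line BAM8_Ox went the same way in each of these members. Its means differed from the mutant mean by 0.19 to 2.79 in the 9 and by -0.17 to -0.36 in the 4. BAM8_Ox is a baseline group, so this was not tested, and 56.4% of all probe sets lay above the mutant mean in it. Both differences use the same mutant arrays. How many of all probe sets called in BAM8-Cat_Ox went the same way in BAM8_Ox was not counted, so nothing about the members is read from this likeness. The background for BAM8-Cat_Ox was 2.2% of all probe sets (1.35% higher and 0.857% lower), and 3.56% of those that met the level. The median member was 0.20 higher in BAM8-Cat_Ox than in the mutants, against 0.01 over all probe sets, and 55 of 73 members lay above the mutant mean, against 52.4% of all probe sets. When only the 4 groups compared were fitted the count was 6 (8.22%), against 0.906% of all probe sets. Fewer members, all of them higher, were also called without BAM8-Cat_Ox replicate 2.

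The largest change was that of 247882_AT. This probe set measured 8.19 and 8.80 in BAM8-Cat_Ox, against 6.11 and 5.41 in bam7, 5.43 and 4.97 in bam8 and 4.43 and 4.78 in bam7 bam8, so that all BAM8-Cat_Ox arrays lay above all mutant arrays. The difference was 3.31 (SE 0.199, limma adjusted p 7.62e-09), and the call held in all 15 alternatives. In the N lines 247882_AT stood at 9.38 and 9.85 (BAM7-N_Ox) and at 7.17 and 7.51 (BAM8-N_Ox). In BAM8_Ox it had 8.02 and 7.92, higher than both BAM8-N_Ox arrays, although BAM8_Ox is a baseline group. It counted as raised in BAM8-N_Ox because wildtype (5.94 and 5.52) and BAM7_Ox (5.92 and 5.80) held the baseline mean down, and the 6 baseline arrays had an SD of 1.13, the widest of the members.

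Second in BAM8-Cat_Ox was 266275_AT, with 4.63 and 4.18, against 3.10 to 3.86 on the 6 mutant arrays. The groups did not overlap and differed by 0.92 (SE 0.184, limma adjusted p 0.00989). The call was lost with only the groups compared and without BAM8-Cat_Ox replicate 1. Its N levels were higher still, at 4.72 and 5.29 in BAM7-N_Ox and 5.99 and 5.89 in BAM8-N_Ox. The other 7 members called higher changed by 0.57 to 0.87.

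Among the most abundant members was 252115_AT, which varied little between replicates. It had 12.44 and 12.54 in BAM8-Cat_Ox, against 11.52 to 11.93 on the mutant arrays. The difference of 0.78 (SE 0.0712, limma adjusted p 2.61e-06) was smaller in size than that of 266275_AT but had the smaller error. In the N lines 252115_AT reached 12.57 and 12.62 (BAM7-N_Ox) and 12.57 and 12.70 (BAM8-N_Ox). In BAM8_Ox it had 12.45 and 12.54, the same range as BAM8-Cat_Ox, and on the other 4 baseline arrays 11.50 to 11.94.

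The 4 members called lower in BAM8-Cat_Ox changed by -0.51 to -0.58 against the mutant mean, which is not the baseline of the N rises. Against that baseline their BAM8-Cat_Ox means differed by -0.24 to -0.35, a description only. Probe set 250690_AT had 5.82 and 5.84 in BAM8-Cat_Ox, against 6.02 to 6.86 in the mutants (-0.58, SE 0.105, limma adjusted p 0.00436). In 253277_AT the level was 5.60 and 5.65 in BAM8-Cat_Ox, against 5.87 to 6.40 in the mutants (-0.56, SE 0.108, limma adjusted p 0.00706). Both lost the call without BAM8-Cat_Ox replicate 2, and 250690_AT also with only the groups compared. The N levels of 253277_AT were 7.85 and 7.80 in BAM7-N_Ox and 7.97 and 7.81 in BAM8-N_Ox, rises of 1.90 and 1.97, with no array of another group above 6.42. Its wildtype arrays had 5.36 and 5.78, so BAM8-Cat_Ox was below the mutants but not below wildtype.

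**Figure D3:**
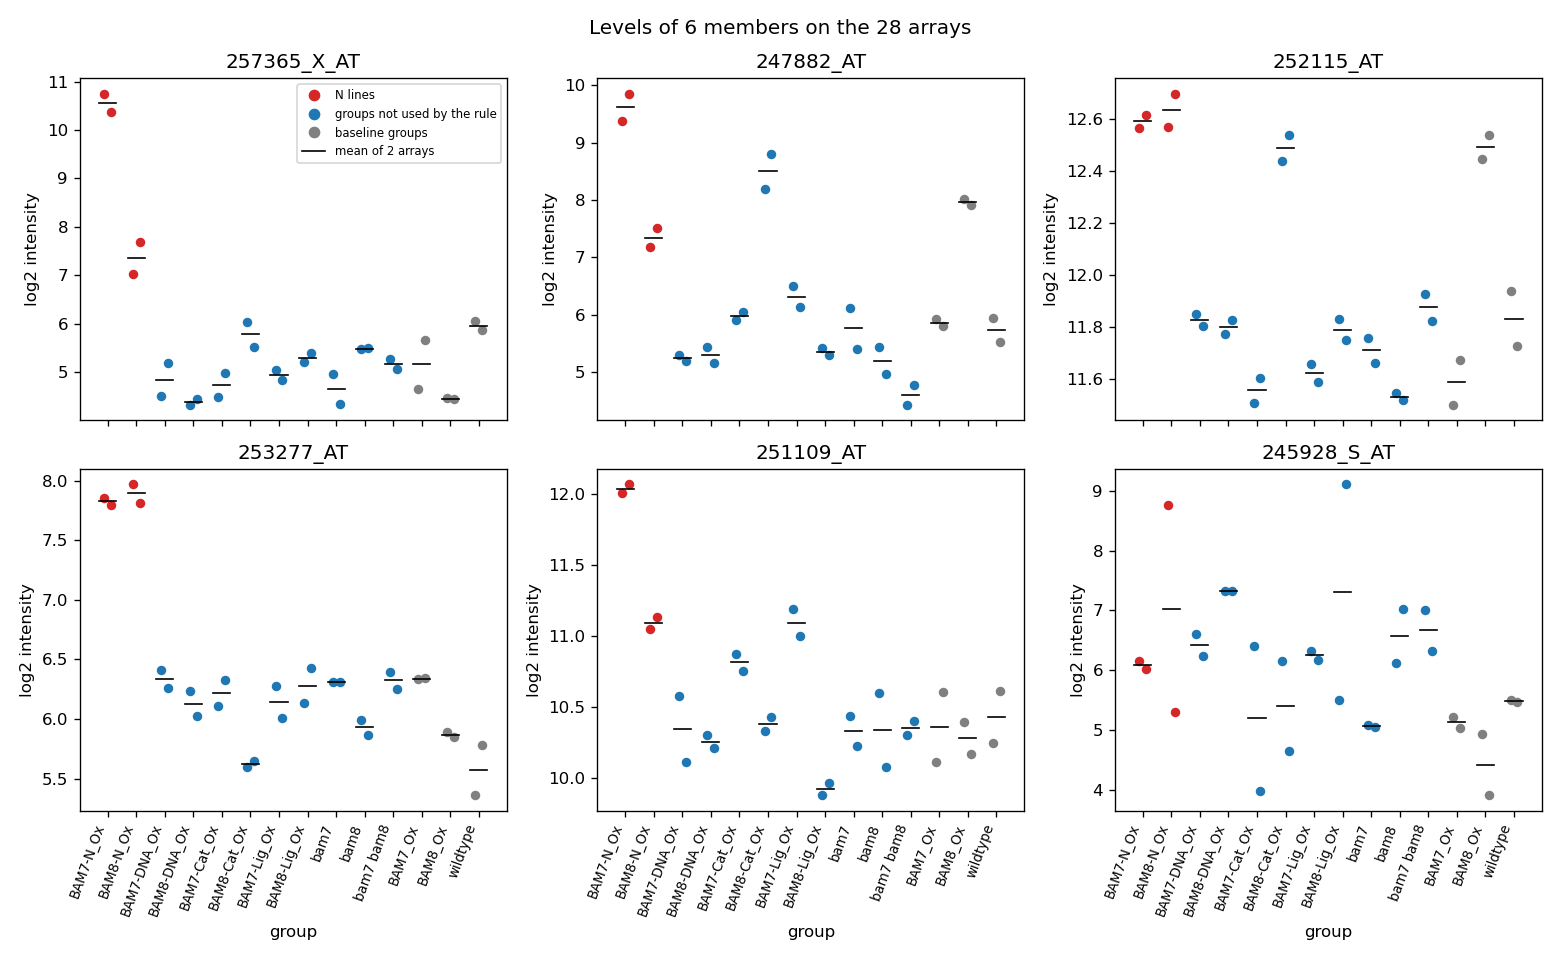
Log2 intensity of 6 members on the 28 arrays (points, 2 per group, with their mean as a bar), with the N lines on the left in red, the groups that the rule did not use in blue and the baseline groups on the right in grey. Probe sets 257365_X_AT and 253277_AT are high in the N lines alone, and 247882_AT and 252115_AT are also high in BAM8-Cat_Ox and BAM8_Ox. Probe set 251109_AT is also high in BAM7-Lig_Ox and, to a smaller extent, in BAM7-Cat_Ox, and 245928_S_AT scatters between replicates.

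In BAM7-Lig_Ox 3 of 73 members (4.11%) were called higher than the mutant mean and 0 lower, against 0.171% and 0.0703% of all probe sets (0.242% in all). Of the probe sets that met the level 0.335% were called. Probe set 247882_AT had 6.49 and 6.14 in BAM7-Lig_Ox, above the 4.43 to 6.11 of the mutant arrays (1.13, SE 0.199, limma adjusted p 0.019). The groups nearly met, since the mean was 5.76 in bam7 but 4.60 in bam7 bam8. From the baseline the BAM7-Lig_Ox mean differed by -0.21, so it was not raised over the reference of the rule. For 251563_AT the levels were 4.99 and 4.85 in BAM7-Lig_Ox, against 3.58 to 4.38 in the mutants (0.92, SE 0.177, limma adjusted p 0.0319), which 6 of 15 alternatives did not call. The median member differed by 0.02 in BAM7-Lig_Ox, against 0.03 over all probe sets. The count of 3 fell when BAM7-Lig_Ox replicate 1, or replicate 2 of either bam8 or bam7 bam8, was left out. In the first of these fits more probe sets of the whole array were called than with all arrays. With only the groups compared the count was 0, with 0.0352% of all probe sets called.

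The BAM7-Cat_Ox line gave 2 of 73 members (2.74%) lower and 0 higher, against 0.73% lower and 0.646% higher of all probe sets (1.38% in all). Of the probe sets that met the level 1.67% were called. The 2 members were 247880_AT (-0.56, SE 0.129, limma adjusted p 0.0398) and 263433_AT (-0.30, SE 0.0689, limma adjusted p 0.0428). Probe set 247880_AT had 5.09 and 5.00 in BAM7-Cat_Ox, against 5.47 to 5.79 in the mutants. In 263433_AT the levels were 6.36 and 6.35 in BAM7-Cat_Ox, against 6.39 to 7.07 in the mutants, so that the groups nearly met. Their calls were lost in 7 and in 11 of 15 alternatives. Of all probe sets 0.00879% were called with only the groups compared, 0.686% with cyclic loess and 0.0703% with array weights. The count of members was among the least stable. It was 0 with only the groups compared, with cyclic loess and with array weights, and in the fits without 1 array it lay between 0 (with BAM7-Cat_Ox replicate 2, bam8 replicate 1 or bam7 bam8 replicate 2 left out) and 9 (with BAM7-Cat_Ox replicate 1 left out). In that last fit 12.5% of all probe sets were called, against 12.3% of the members, so the 9 are at the background. Leaving out bam7 replicate 2 gave 5, with 4.42% of all probe sets called, and leaving out replicate 1 of bam7, replicate 2 of bam8 or replicate 1 of bam7 bam8 gave 1.

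Limma called 0 of 73 members against the mutant mean in BAM8-Lig_Ox or in either DNA line. At an unadjusted p under 0.05 there were 4 in BAM7-DNA_Ox (5.48%, against 3.81% of all probe sets), 8 in BAM8-DNA_Ox (11%, against 6.28%) and 13 in BAM8-Lig_Ox (17.8%, against 4.61%). Few probe sets of the whole array were called in these lines, 0.0308% in BAM7-DNA_Ox, 0.127% in BAM8-DNA_Ox and 0.0352% in BAM8-Lig_Ox. The median member differed from the mutant mean by -0.00 in BAM7-DNA_Ox, 0.05 in BAM8-DNA_Ox and 0.08 in BAM8-Lig_Ox. With array weights the count was 1 for BAM7-DNA_Ox, with 0.0791% of all probe sets called. The count also rose above 0 for BAM7-DNA_Ox without bam7 replicate 1 and for BAM8-Lig_Ox without its replicate 1.

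Loss of both genes was compared with the mean of the single mutants. In bam7 bam8 2 of 73 members (2.74%) were called higher and 0 lower, against 0.0659% and 0.0835% of all probe sets (0.149% in all). Of the probe sets that met the level 0.295% were called. The level of 263433_AT was 7.07 and 6.94 in bam7 bam8, against 6.50 and 6.47 in bam7 and 6.39 and 6.53 in bam8, a difference of 0.53 (SE 0.0731, limma adjusted p 0.00242) with no overlap. In 250690_AT the values were 6.86 and 6.74 in bam7 bam8, against 6.55 and 6.18 in bam7 and 6.08 and 6.02 in bam8 (0.59, SE 0.111, limma adjusted p 0.0356, not called in 7 of 13 alternatives). The median member was 0.14 higher in bam7 bam8, against 0.01 over all probe sets. The count of 2 was 0 when bam7 bam8 replicate 1 was left out, and 1 when its replicate 2, replicate 2 of bam7 or either array of bam8 was. With only the groups compared it was 0, with 0.022% of all probe sets called.

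Over the 7 signed comparisons on arrays that the rule did not use and the F test, 17 members (23.3%) were called at least once and 56 in none, against 4.12% of all probe sets called at least once. A member that was not called is not thereby shown to be equal among the 9 groups. In simulated data with BAM8-Cat_Ox changed by 0.5 on the log2 scale, its comparison with the mutant mean recovered 59.7% of the changes, and 89.6% of changes of 1. The F test over the 9 groups recovered 29.9% and 77.6%. Each simulation changed 200 probe sets, while limma called 7 in BAM7-DNA_Ox and 8 in BAM8-Lig_Ox, so recovery in those lines may be lower.

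The 2 N lines were set against each other to see where the common rise differed in size. Both rises had to pass the same threshold, so their likeness is set in part by the choice of members. The N means were less than 0.59 apart in 63 of 73 members, against 98.2% of all probe sets, with 34 higher in BAM8-N_Ox and 39 higher in BAM7-N_Ox. The median difference was -0.04, and -0.01 over all probe sets. Limma called 6 of 73 members (8.22%), 2 higher and 4 lower in BAM8-N_Ox, where 0.813% of all probe sets were called (0.391% higher and 0.422% lower). The members were chosen for high values on these same 4 arrays, so nothing is read from their share beside that of all probe sets. With only these 4 arrays in the fit, 2 residual degrees of freedom remained and 0 of 73 were called. Over all probe sets 0 were called in that fit too, so its 0 says nothing about the members. The count was also lower without BAM8-N_Ox replicate 1.

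**Figure D4:**
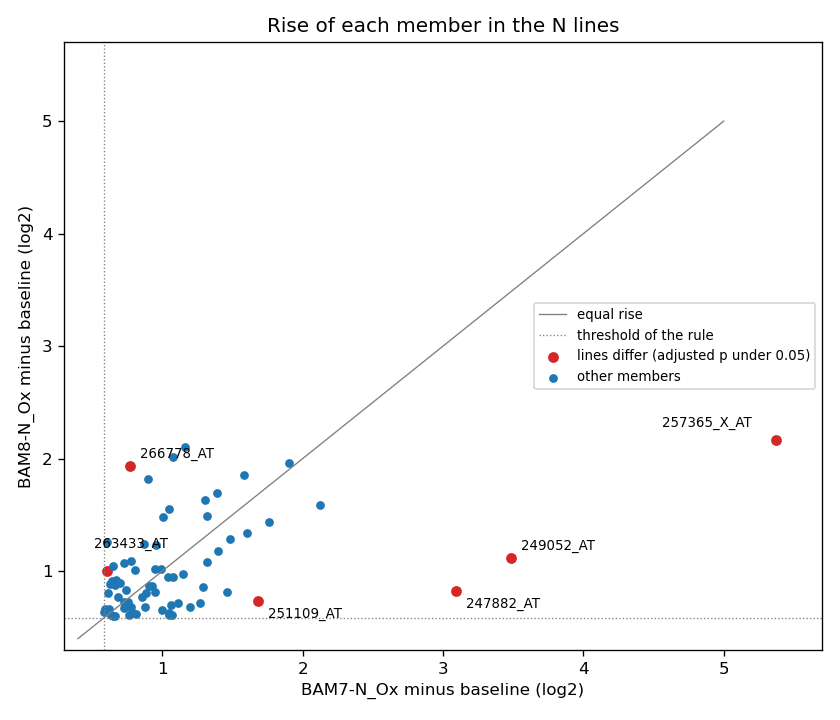
Rise over baseline (log2) of each member in BAM8-N_Ox (vertical) against that in BAM7-N_Ox (horizontal), with the line of equal rise, the threshold of the rule (dotted) and the 6 members that differed between the lines by limma in red. Members crowd near the line of equal rise below 2, and 3 of the red points stand far to the right, at rises of 3.10, 3.49 and 5.37 in BAM7-N_Ox.

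Members with the largest difference were lower in BAM8-N_Ox. For 257365_X_AT the difference was -3.21 (SE 0.3, limma adjusted p 1.27e-05), and for 249052_AT it was -2.37 (SE 0.417, limma adjusted p 0.00628). The call of 249052_AT was lost without BAM7-N_Ox replicate 2, without BAM8-N_Ox replicate 1 and with only the groups compared. Probe set 247882_AT, described above, differed by -2.27 (SE 0.244, limma adjusted p 5.69e-05). In the other direction 266778_AT had 6.24 and 6.25 in BAM8-N_Ox, against 5.17 and 5.01 in BAM7-N_Ox, a difference of 1.16 (SE 0.163, limma adjusted p 0.000913). All its arrays outside the N lines lay between 3.96 and 4.99. Probe set 263433_AT was 7.69 and 7.65 in BAM8-N_Ox, against 7.30 and 7.26 in BAM7-N_Ox (0.39, SE 0.0844, limma adjusted p 0.0341), and 7 of 11 alternatives did not call it.

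The member 251109_AT differed both between the N lines and between the Lig lines. It had 11.05 and 11.14 in BAM8-N_Ox, against 12.01 and 12.07 in BAM7-N_Ox (-0.95, SE 0.182, limma adjusted p 0.0138). In the Lig lines its levels were 9.88 and 9.97 in BAM8-Lig_Ox, against 11.19 and 11.00 in BAM7-Lig_Ox (-1.17, SE 0.182, limma adjusted p 0.009). Against the mutant mean it was higher in BAM7-Lig_Ox by 0.75 (SE 0.149, limma adjusted p 0.0372). On the 6 mutant and 6 baseline arrays it lay between 10.08 and 10.61, so BAM8-Lig_Ox was below and BAM7-Lig_Ox above all of them. The BAM7-Cat_Ox arrays, with 10.88 and 10.75, were above them too, but that line was not called.

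The remaining BAM8 and BAM7 lines of the same suffix were compared too, a step added after the data were seen. Between the Cat lines 8 of 73 members (11%) differed by limma, 7 higher and 1 lower in BAM8-Cat_Ox, against 1.51% of all probe sets (0.963% higher, 0.55% lower). Of the probe sets that met the level 2.44% differed. The median member was 0.23 higher in BAM8-Cat_Ox, against -0.05 over all probe sets. Probe set 266363_AT had 7.23 and 7.03 in BAM8-Cat_Ox, against 6.05 and 6.18 in BAM7-Cat_Ox (1.01, SE 0.135, limma adjusted p 0.000729). The count for the Cat lines was 3 with array weights (0.207% of all probe sets) and 0 with only the 4 arrays compared (0.0176%). It was also lower without BAM8-Cat_Ox replicate 2. The DNA lines differed in 1 of 73 members, 250690_AT, lower in BAM8-DNA_Ox, against 0.347% of all probe sets (0.237% lower) and 0.571% of those that met the level. The Lig lines also differed in 1, 251109_AT, lower in BAM8-Lig_Ox, against 0.215% of all probe sets (0.11% lower) and 0.286% of those that met the level. For 250690_AT the levels were 6.27 and 6.38 in BAM8-DNA_Ox, against 6.98 and 6.92 in BAM7-DNA_Ox (-0.63, SE 0.128, limma adjusted p 0.04), and this call was lost without any 1 of the 4 arrays. The count for the Lig lines was 2 without BAM7-Lig_Ox replicate 2.

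Likeness between members was described on the groups outside the rule. Over the 18 arrays that the rule did not use, Pearson's r between 2 members had a median of 0.12 over 2628 pairs, with a range of -0.76 to 0.87. These arrays come in replicate pairs and share depth of signal and normalization, so r is a description only. The pair with the highest r, 252115_AT and 262304_AT (r 0.87, Spearman's rho 0.44), had an r of 0.24 over 16 arrays without the 2 farthest from the median. For 259743_AT and 260260_AT r was 0.85 (rho 0.76), and 0.83 without the 2 farthest arrays. For 260876_AT and 266363_AT it was 0.80 (rho 0.69), and 0.74 without them.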

How the data were processed

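The deposited intensity values are on a linear scale (2.89 to 22277), 1 per probe set and array. Per the submitters' processing notes they were made with RMA by the authors; no version is given in the sources used here, and that they are the antilog of RMA's log2 values is inferred from their range. Labelled cRNA was made from 1 µg of total RNA per sample, per the labels' protocols. Detection calls were not used here.

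Values were put on the log2 scale, 1 control probe set was left out of 22747, and limma 3.58.1 (R 4.3.3) fitted 1 mean for each of the 14 groups (28 arrays, 14 residual degrees of freedom, 17.7 with those limma adds). Tests were two-sided, with Benjamini-Hochberg adjustment over 22746 probe sets within each comparison and calls at an adjusted p under 0.05. The median SE was 0.113 for a line against the mutant mean and 0.139 between 2 lines, and the number of arrays limits the precision. A call of 1 comparison is not corrected for the 12 run, 9 planned and 3 added.

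The members and lists were chosen with earlier results of these data known. Up to 2 called members per direction and comparison are named by size of change; a longer rule and the gene lists could not be applied without gene names. Values of 245928_S_AT, 262304_AT and, in comparisons where they are not among the first 2, 252115_AT and 251109_AT were added after they were seen. The fit was tested on simulated data. Alternatives tried were a fit restricted to the groups compared, keeping only the 15164 brightest probe sets, robust estimation with a variance trend, array weights, cyclic loess, a block for the replicate number, dropping 1061 probe sets with s or x suffixes, and dropping each array in turn. A lone array is then assumed to vary like the other groups. Matplotlib 3.10.9 (Python 3.11.15) drew the figures.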

Additional observations from a re-analysis of the deposited data

Results flagged for a closer look

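The BAM8 and BAM7 lines of the same suffix differed by limma's test of the difference itself at several members. In the N lines 6 members differed (0.813% of all probe sets did), among them 266778_AT (1.16), 263433_AT (0.39), 257365_X_AT (-3.21) and 249052_AT (-2.37). The members were chosen on these same 4 N arrays, so nothing is read from their share beside that of other probe sets. With only these 4 arrays in the fit, 0 members and 0 probe sets in all were called. In the Cat lines 8 differed (1.51% of all probe sets), among them 247882_AT (2.51), 266363_AT (1.01) and 253277_AT (-0.59). In the DNA lines 1 differed (0.347% of all probe sets), 250690_AT (-0.63), and in the Lig lines 1 (0.215% of all probe sets), 251109_AT (-1.17). Values are BAM8 minus BAM7 on the log2 scale. Among the probe sets that met the level of 5 in both N lines the shares were 0.975% (N), 2.44% (Cat), 0.571% (DNA) and 0.286% (Lig). BAM7-Cat_Ox is the group whose replicates correlated least, and the count for the Cat lines was 10 without its replicate 1 and 6 without its replicate 2. No group has enough arrays to look for a single outlying sample.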

How the results depend on the processing

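Of 21 calls of named members followed through 294 alternatives, 229 held, 65 were lost and 0 changed sign. With only the groups compared, 6 members were called for the 9 groups (0.747% of all probe sets) and 6 for BAM8-Cat_Ox against the mutants (0.906%). The count was 0 for BAM7-Cat_Ox (0.00879%) and BAM7-Lig_Ox (0.0352%) against the mutants and for bam7 bam8 (0.022%). It was also 0 for the N (0%), DNA (0.101%), Cat (0.0176%) and Lig (0.0176%) pairs. Beside such small shares a count of 0 says little about the members. That fit holds fewer arrays. Array weights gave 1 for BAM7-DNA_Ox (0.0791% of all probe sets) and 0 for BAM7-Cat_Ox (0.0703%) against the mutants. They gave 2 for the DNA pair (0.615%) and 3 for the Cat pair (0.207%). Cyclic loess gave 0 for BAM7-Cat_Ox against the mutants (0.686%) and 2 for the Lig pair (0.224%). The cause of these shifts was not tested. Without 1 array, the counts ranged from 6 to 11 for the 9 groups, and against the mutants from 5 to 13 for BAM8-Cat_Ox, 0 to 9 for BAM7-Cat_Ox, 0 to 2 for BAM7-Lig_Ox, 0 to 1 for BAM7-DNA_Ox and 0 to 1 for BAM8-Lig_Ox. They ranged from 0 to 3 for bam7 bam8, 3 to 4 for the N pair, 4 to 10 for the Cat pair, 1 to 2 for the Lig pair and 0 to 0 for the DNA pair. The rule gave 63 to 88 members without 1 array, 64 with cyclic loess (62 shared with the 73), 118 without a minimum level and 17 with a rise of 1. Cyclic loess moved the median of all probe sets by at most 0.06 in size in any comparison. With the replicate number as a block the bam7 bam8 count was 1, since 250690_AT lost its call (adjusted p 0.0514), and no other count moved by more than 1.5 times. The replicate numbers share only a number: deviations of same-numbered arrays correlated between -0.38 and 0.43 over 91 pairs of groups, and at -0.02 between the N lines.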
